A study of Mus musculus with 4 samples.

Results

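PT-S3-1 was cluster 0 of the 23 clusters of mouse kidney nuclei that the authors made by single nucleus RNA sequencing, and its members were taken by that cluster number. It supplied 4 of the 92 mean expression profiles in the table, 1 for each mouse. The table numbers its clusters, and the name PT-S3-1 (proximal tubule, segment S3, cluster 1) came from the order of the clusters in the authors' marker lists. The nuclei came from kidney cortex of male mice of mixed strain, with 1 mouse in each of 4 conditions. The control mouse carried TRE-hKLF6 alone, a human KLF6 transgene that is silent without its activator. The OE mouse carried CAG-rtTA,TRE-hKLF6, in which a ubiquitous promoter drives the activator, so that overexpression was global and not limited to tubules. A further control mouse and a further OE mouse were given aristolochic acid I (AAI). All 4 mice received a doxycycline diet, which switches on the OE transgene, and kidneys were taken the day after a single AAI injection. The labels give the mice without AAI as untreated, whereas the methods describe vehicle injection.

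The proximal tubule reabsorbs most of the filtered glucose, amino acids, phosphate and bicarbonate in its early segments S1 and S2, while the straight segment S3 is richer in peroxisomes and cytochrome P450 enzymes. AAI is a plant toxin that enters proximal tubule cells through the organic anion transporters OAT1 and OAT3, encoded by *Slc22a6* and *Slc22a8*. Its reduced metabolites bind to DNA. The bulky adducts block RNA polymerase II on transcribed genes and activate p53.

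Each value was the mean normalized expression of 1 gene over the nuclei of the cluster in 1 mouse, on a linear scale where every column sums to 10000. Values of a gene in the 4 mice are given below in the order control, control with AAI, OE and OE with AAI. Differences are given as log2(value + 1) in the first group minus that in the second, among genes whose larger value was at least 0.5. A gene was called higher or lower at a difference of 0.2 or more, which is a rule of size and not a test. With 1 mouse per condition there was no replicate error, so no p-value was possible and every difference between conditions could be a difference between mice. The table gives neither the depth nor the number of nuclei behind a column, so no counting interval could be set. The share of genes at 0 in PT-S3-1 was 15.1%, 24.3%, 15.6% and 27.2%. Both mice with AAI thus had more genes at 0.

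The given markers were all present in PT-S3-1 without AAI. *Slc13a3*, the basolateral sodium-dicarboxylate cotransporter, was 5.61, 7.41, 5.57 and 6.22. It was the highest of the 23 clusters in all 4 mice, although the next cluster came within a difference of 0.03 in the control mouse. *Slco1a1*, an organic anion transporter, was 4.18, 5.53, 3.69 and 2.02, with the OE mouse given AAI lowest. *Cntnap5a*, a neurexin family adhesion gene, was 5.86, 0.69, 4.31 and 0.0675, so that the 2 mice with AAI lay far below the 2 without. Without AAI, *Cntnap5a* was 3.48 and 2.29 in PT-S3-3 and at most 1.30 in the other proximal tubule clusters. The label therefore held by this marker without AAI, and not in the OE mouse with AAI.

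In all, 5 genes were highest in PT-S3-1 of the 23 clusters in all 4 mice at a value of at least 0.5. Besides *Slc13a3*, these were *Nat8f6*, *Cndp1*, *Cyp2j13* and *Keg1*. *Nat8f6*, an N-acetyltransferase family gene, was 1.83, 1.91, 1.89 and 2.14, against 1.5, 1.43, 1.38 and 1.29 in the next cluster. *Cndp1*, which encodes the dipeptidase carnosinase, was 2.78, 2.98, 2.21 and 1.88. *Keg1*, a kidney-enriched glycine N-acyltransferase family gene, was 88.8, 84.8, 63.1 and 57.6. Its values were among the top of the cluster, but the next cluster held 88.5 in the control mouse, so *Keg1* did not separate PT-S3-1 from its neighbours. In none of the 5 genes did the smallest difference over the mice reach 0.2, and the highest of these was 0.18 for *Nat8f6*. PT-S3-1 was thus marked by small excesses of genes that its neighbours shared.

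Genes of 2 segments met in the profile. *Cyp7b1*, an oxysterol hydroxylase of male S3, was 0.322, 0.358, 0.307 and 0.435 in PT-S3-1, while PT-S3-2 ranged from 32.0 to 48.3. Without AAI, *Cyp7b1* in PT-S3-3 was also far below PT-S3-2, as given below, so low *Cyp7b1* was not particular to PT-S3-1. *Slc7a13*, an S3 transporter of aspartate, glutamate and cystine, was 13.4, 9.92, 9.09 and 2.38 in PT-S3-1 and at least 21.7 in PT-S3-2. *Slc34a1*, the sodium-phosphate cotransporter NaPi-IIa, was 65.6, 31.6, 48.5 and 33.5, and stayed above the 5.35 to 16.6 of PT-S3-2 in every mouse. *Slc5a12*, the early-segment sodium-lactate cotransporter, was 2.72 and 2.59 without AAI, against 38.9 to 55.8 in the PT-S1-S2 clusters without AAI. *Slc34a1* was compared here with PT-S3-2 alone. In all 4 mice, 0 of 10 S1/S2 markers were higher than the mean of the other 4 proximal tubule clusters and 4 were lower. Their median difference was -0.64. The 5 S3 markers that passed had 0 higher and 1 lower, at a median of -0.16, beside 1.96% and 2.85% of all genes. Cluster 0 therefore had little *Cyp7b1*, had low *Slc5a12* without AAI and held *Slc34a1* and *Slc7a13* together. The authors' name is kept here with that reservation.

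**Figure D1:**
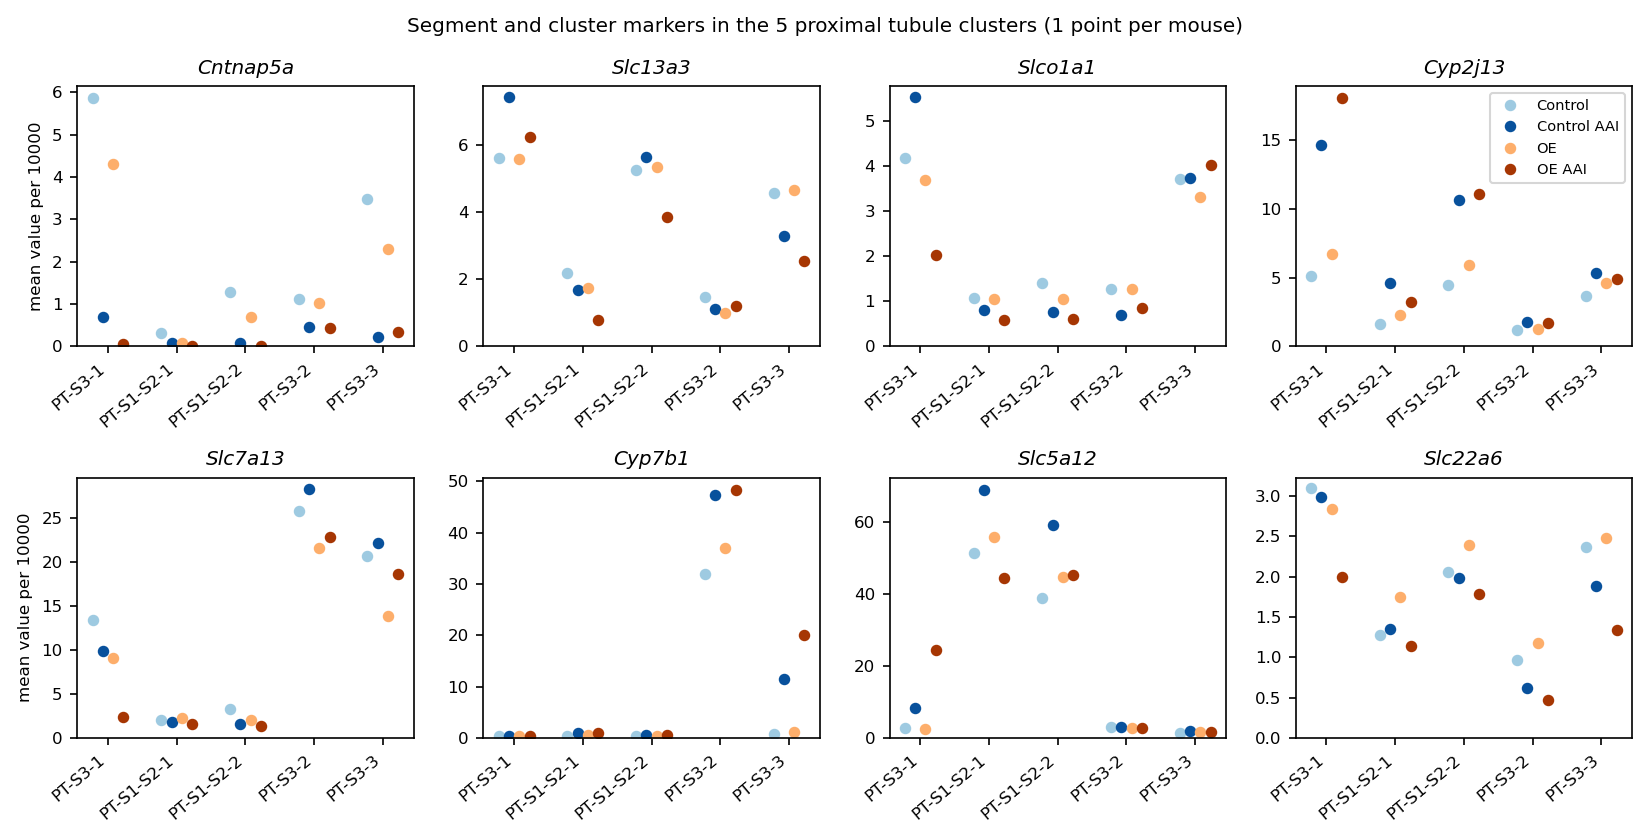
Mean value per 10000 (vertical axes, linear) of 8 genes in PT-S3-1 and the other 4 proximal tubule clusters, with 1 point per mouse. *Cyp7b1* was under 0.5 in PT-S3-1 in all 4 mice, and *Slc5a12* reached 24.4 there in the OE mouse with AAI.

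Across all 19609 gene rows, the profile most like PT-S3-1 changed with AAI. Without AAI it was PT-S3-3 in both genotypes, with Pearson's r of 0.994 in each on the log2(value + 1) scale, followed by PT-S1-S2-2 at 0.982 in each. With AAI, PT-S1-S2-2 came first at 0.979 in the control and 0.986 in the OE genotype. PT-S3-3 then stood at 0.964 and 0.941, below InjuredPT-B at 0.965 and 0.955. In the OE genotype with AAI, PT-S1-S2-1 at 0.9645 was also above PT-S3-3. The order did not keep to cell type, since the endothelial cluster EC-1 (0.9554) was above PT-S1-S2-1 (0.9495) in the control mouse without AAI. The points of each correlation were genes of the same library and shared its depth and any free RNA, so these are descriptions of likeness.

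Against the mean of the other 4 proximal tubule clusters of the same mouse, 3470 genes passed the filter in all 4 mice. Of these, 68 (1.96%) were higher in PT-S3-1 in every mouse and 99 (2.85%) were lower in every mouse. The clusters were made from these same values, so the counts describe the cluster and test nothing. Among the 10 most stable rises were *Cyp2j13*, *Slc13a3*, *Cndp1*, *Cadm1*, *Nrp1*, *Hsd17b11*, *Nat8f6*, *Gm6999* and *Ces1f*. *Cyp2j13*, an arachidonic acid epoxygenase family gene, was 5.11, 14.7, 6.74 and 18.1, and exceeded the mean by 0.70, 1.25, 0.77 and 1.61. *Ces1f*, a carboxylesterase, and *Hsd17b11*, a lipid-droplet dehydrogenase, exceeded that mean by 0.42 to 0.56 and by 0.44 to 0.52.

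The 10 most stable falls were *Cyp7b1*, *Fgf1*, *Gramd1b*, *Rnf24*, *Slc22a19*, *Snhg11*, *Mep1b*, *Tet2*, *Epb41l3* and *Kyat3*. *Cyp7b1* lay below the mean of the other 4 clusters at differences of -2.83, -3.56, -3.05 and -3.69. *Fgf1*, a fibroblast growth factor, was 2.46, 2.34, 3.11 and 3.19 in PT-S3-1 and 22.3 to 40.5 in PT-S3-2. *Tet2*, a DNA demethylase, was 3.24, 5.42, 3.04 and 3.50, at differences of -1.26, -1.0, -1.35 and -1.15. The mean was pulled up by PT-S3-2 for *Cyp7b1* and *Fgf1*, whose values there exceeded those of PT-S3-1 by 2.80 or more in every mouse. *Gramd1b*, *Rnf24* and *Mep1b* were likewise far below PT-S3-2, at differences of -3.75 to -2.72, -3.95 to -2.79 and -3.00 to -2.17 over the mice.

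Pair by pair, PT-S3-1 was farthest from PT-S3-2 by count, with 340 genes higher and 323 lower in all 4 mice of 3542 that passed. PT-S3-3 gave 66 higher and 71 lower of 3396, PT-S1-S2-2 gave 90 and 125 of 3404, and PT-S1-S2-1 gave 287 and 370 of 3564. Against PT-S3-2, the transcription factor gene *Bnc2*, the phospholipase gene *Plcb1*, *Slc34a1*, the endocytic adaptor gene *Dab2* and *Pik3c2g* were the 5 most stable rises. *Dab2* was 42.1, 50.5, 39.4 and 43.0, and exceeded PT-S3-2 by 1.68, 2.39, 1.93 and 2.31. Against PT-S3-3, the rises were *Magi2*, the carbonic anhydrase gene *Car12*, *Pik3c2g*, *Slc16a14* and *Slc22a8*, and the falls were *Chrm3*, *Gm13936*, *Rdh16f2*, *Tet2* and *Fgf1*. The differences from PT-S3-3 were larger with AAI for *Pik3c2g*, at 2.34 and 2.67 with AAI and 0.76 and 0.69 without.

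The transporters that carry AAI were present in PT-S3-1. *Slc22a6* (OAT1) was 3.1, 2.99, 2.84 and 2.00, and exceeded the mean of the other 4 clusters by 0.62, 0.70, 0.38 and 0.46. *Slc22a8* (OAT3) was 2.75, 3.63, 2.08 and 2.40, at differences of 0.30, 0.71, 0.15 and 0.77 from that mean. *Nqo1*, which encodes a quinone oxidoreductase able to reduce AAI, was lower than that mean in the 2 AAI mice, at differences of -0.25 and -0.63, and its values were 0.268, 0.649, 0.309 and 0.389. Of 17 organic anion and cation transporter genes that passed, 5 were higher than that mean in all 4 mice, beside 1.96% of all genes, and 1 was lower, *Slc22a19*, beside 2.85%. Members of the Slc22a, Nat8, Ces1 and Cyp2j families have near copies in the genome, and how reads were split between copies is not given in the sources used here.

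Markers of other cell types were low in PT-S3-1, except those of the thick ascending limb. The 5 podocyte markers summed to 0.225 to 0.488 over the mice, the 5 endothelial markers to 0.430 to 0.932, the 5 macrophage markers to 0.138 to 0.285, and the 6 collecting duct markers to 0.393 to 0.643. The 5 mesangial and stromal markers summed to at most 0.121, with up to 2 of the 5 at 0 in a mouse. The 4 thick ascending limb markers summed to 8.95 to 9.43, of which *Cldn10*, also a proximal tubule claudin gene, held 3.95 to 4.79. *Umod* (uromodulin) was 2.91, 3.65, 3.94 and 3.41, *Slc12a1* (the cotransporter NKCC2) was 1.25, 1.14, 1.35 and 1.43, and *Cldn16* was at most 0.0119 and at 0 in the OE mouse with AAI. The 4 distal convoluted tubule markers summed to 2.34, 2.15, 1.98 and 3.53, highest in the OE mouse with AAI. The part of other cells' RNA in the results below was not tested.

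AAI went with changes in many genes of PT-S3-1. In the control genotype 4019 genes passed the filter, of which 666 (16.6%) were higher with AAI and 603 (15%) lower, around a median difference of 0.01 over all genes. In the OE genotype 4129 passed, of which 1098 (26.6%) were higher and 736 (17.8%) lower, around a median of 0.06. With each difference centred on that median, the counts were 633 higher and 640 lower in control and 814 and 970 in OE, so which direction held more genes turned with the centring. These 2 comparisons share no mouse. Of 3836 genes that passed in both, 416 were higher in both, 344 were lower in both, 28 were higher in control and lower in OE, and 33 were the other way round. A cluster mean cannot tell apart a change of RNA per nucleus and a change in which nuclei were assigned to the cluster.

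The 10 genes with the highest smaller rise were *Gria3*, *Mdm2*, *Gldc*, *Exoc4*, *Egr1*, *Mgmt*, *Gas6*, *Slc5a12*, *Cyp2j13* and *Gm26917*. *Gria3*, a glutamate receptor subunit gene on chromosome X, was 1.27, 9.60, 0.526 and 14.4, with differences of 2.22 in control and 3.34 in OE. *Mdm2*, whose product degrades p53 and which p53 induces, was 0.911, 7.89, 0.871 and 6.65, with differences of 2.22 and 2.03. *Mgmt*, a DNA repair methyltransferase, was 0.190, 2.31, 0.146 and 3.97, and the 2 AAI mice lay above both mice without AAI. *Gldc*, the glycine decarboxylase of the glycine cleavage system, was 0.594, 4.09, 1.15 and 5.71. *Egr1*, an immediate early transcription factor gene, was 0.338, 2.78, 0.165 and 2.91. *Gas6*, the ligand of the Axl and Mertk receptors, was 1.18, 5.75, 1.20 and 4.62.

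The rises of several of these genes were larger in PT-S3-1 than in the other proximal tubule clusters of the same mice. The difference of *Gria3* was 2.22 and 3.34 in PT-S3-1, and from 0.35 to 2.24 over the other 4 clusters and both genotypes. That of *Gldc* was 1.68 and 1.64, against -0.11 to 1.06. *Mdm2* did not stand apart, since PT-S3-3 gave 2.11 and 2.24. *Exoc4*, an exocyst subunit gene, rose in all 5 clusters, by 0.67 to 1.86. No test of these differences between clusters was possible.

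The 10 genes with the largest smaller fall were *Gm42397*, *Cntnap5a*, *Lpl*, *Ndrg1*, *Wwox*, *Fhit*, *Park2*, *Naaladl2*, *4930533I22Rik* and *Gm16004*. *Gm42397*, a long noncoding RNA gene, was 13.6, 0.976, 11.8 and 0.142, with differences of -2.89 and -3.48. *Lpl*, which encodes lipoprotein lipase, was 6.73, 1.17, 4.55 and 0.524. *Ndrg1*, a stress and differentiation gene, was 30.6, 8.80, 29.4 and 7.62. *Park2*, which encodes the ubiquitin ligase parkin, was 10.0, 2.64, 8.96 and 2.34. In each of the 10 genes both AAI mice lay below both mice without AAI. *Lpl* and *Ndrg1* fell in all 5 proximal tubule clusters and in the distal convoluted tubule cluster as well, by at least 0.58 in control. The difference of *Cntnap5a* was -1.88 to -0.11 in the other 4 proximal tubule clusters, where its level without AAI was lower.

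**Figure D2:**
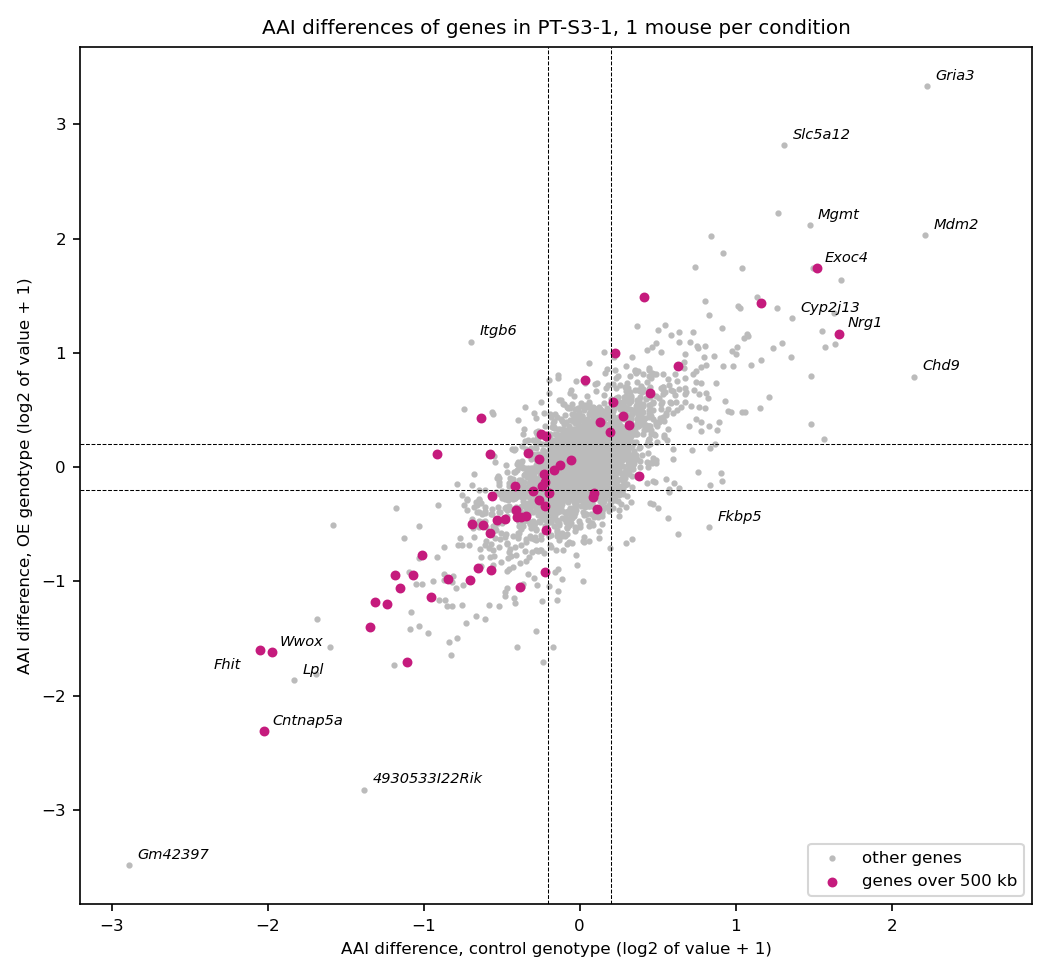
Each point is 1 gene that passed the filter in both genotypes, plotted by its AAI difference in the control genotype (horizontal) and in the OE genotype (vertical), both in log2(value + 1), with dashed lines at 0.2 and -0.2. Of 3836 genes, 416 lie at the upper right and 344 at the lower left, and genes over 500 kb are coloured.

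Many targets of p53 were higher with AAI. Of 33 target genes in the table, 14 passed the filter in each genotype, of which 12 were higher in control and 13 in OE, and 0 were lower. Those counts stand beside 16.6% and 26.6% of all genes. Since most of these genes were under 0.5 without AAI and passed through the AAI mice, the filter itself favours high members in these counts. With no filter, 20 of all 33 were higher in control and 18 in OE, 0 were lower, and the median difference was 0.29 and 0.34. Among all genes with no filter, at most 19609, 761 were higher and 701 lower in control, and 1229 and 927 in OE. The median over those genes was -0.003 in each genotype. *Ccng1* (cyclin G1) was 0.147, 1.82, 0.254 and 1.66. *Trp53inp1*, a p53 cofactor, was 0.320, 2.87, 0.398 and 2.19. *Cdkn1a*, which encodes the cell cycle inhibitor p21, was 0.00921, 0.570, 0.00841 and 0.615. *Polk*, a polymerase that copies past bulky adducts, was 0.335, 1.77, 0.384 and 2.02.

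Other members of the list moved less. *Bax*, the proapoptotic pore gene, was 0.243, 0.545, 0.244 and 0.599. *Rrm2b*, a ribonucleotide reductase subunit gene, was 0.491, 0.528, 0.563 and 0.502, and was called in neither genotype. In PT-S3-3 the p53 targets were about as far from no change as in PT-S3-1, for example *Trp53inp1* at 1.87 and 1.61 against 1.55 and 1.19. In PT-S1-S2-1 it was 0.82 and 0.55.

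The sequence upstream of 2 of these targets is shown because it holds a match to the p53 consensus full site without a spacer. Both strands read alike for this site. A match kept the core C and G of each part and allowed at most 2 mismatches elsewhere. Among 13781 genes of the table with a RefSeq promoter window in GRCm38.p6, 60 (0.435%) held such a match. Of 25 p53 targets with a window, 3 (12%) did, of which 2 passed the filter. The windows counted run past the transcription start. The third match did not lie wholly before the start, so it is not shown. Capitals mark the match in the 250 bases before the transcription start, written 5′ to 3′ on the strand of the gene. *Cdkn1a* lies on the plus strand of chromosome 17, window chr17:29090729-29090978, with the match from -51 to -32, and *Ccng1* on the minus strand of chromosome 11, window chr11:40755287-40755536, with the match from -195 to -176. Each match had 1 mismatch.
Cdkn1a: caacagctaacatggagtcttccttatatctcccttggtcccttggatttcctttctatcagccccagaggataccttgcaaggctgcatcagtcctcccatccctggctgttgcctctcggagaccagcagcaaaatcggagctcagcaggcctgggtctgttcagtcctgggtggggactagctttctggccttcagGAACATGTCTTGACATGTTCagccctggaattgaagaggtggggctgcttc
Ccng1: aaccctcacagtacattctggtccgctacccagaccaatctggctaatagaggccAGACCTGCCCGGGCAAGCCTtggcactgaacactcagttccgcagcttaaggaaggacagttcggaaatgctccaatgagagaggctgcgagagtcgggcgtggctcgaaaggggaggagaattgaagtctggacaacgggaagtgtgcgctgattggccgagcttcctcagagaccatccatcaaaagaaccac

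Some segment markers changed with AAI, in both directions within each list. Of 10 S1/S2 markers that passed, 5 were higher in control and 7 in OE, beside 16.6% and 26.6% of all genes, and 1 was lower in each, *Slc34a1*. Their median difference was 0.20 in control and 0.45 in OE. *Slc5a12* was 2.72, 8.24, 2.59 and 24.4, which set the OE mouse with AAI apart from the other 3. *Slc2a2*, the basolateral glucose transporter GLUT2, was 0.679, 1.61, 0.619 and 2.68, and *Slc7a8*, an amino acid exchanger, was 0.417, 0.973, 0.492 and 1.63. Of 8 S3 markers measured, 4 passed the filter, of which 3 were lower in each genotype, beside 15% and 17.8% of all genes, at medians of -0.41 and -1.14, and *Aadat* was higher. *Acsm3*, an acyl-CoA synthetase gene, was 4.62, 1.46, 4.70 and 0.720.

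The rise of *Slc5a12* in OE was not seen in the other proximal tubule clusters. Its AAI difference in PT-S3-2 and PT-S3-3 was 0.03 to 0.16, and in the 2 PT-S1-S2 clusters it was 0.42 and 0.60 in control and -0.32 and 0.02 in OE. In InjuredPT-B it was 0.98 in control and -0.35 in OE. *Slc7a13* fell by 0.40 and 1.58 in PT-S3-1, and its difference was 0.07 to 0.40 in PT-S3-2 and PT-S3-3. The fall was not particular to PT-S3-1, since its difference in control and OE was -0.68 and -0.40 in PT-S1-S2-2. It was -0.08 and -0.31 in PT-S1-S2-1, and -0.75 and -1.21 in InjuredPT-B. *Cyp7b1*, which stayed under 0.5 in PT-S3-1, went from 0.75 to 11.6 in PT-S3-3 of the control genotype and from 1.22 to 20.1 in that of OE. The 2 most alike S3 clusters without AAI thus differed in these segment genes with AAI, and whether nuclei changed or moved between clusters cannot be told apart.

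Most genes of very long genomic span were lower with AAI in PT-S3-1. The length class of over 500 kb was chosen after the data were seen. Of 65 such genes that passed in control, 43 were lower and 11 higher, which is 66.2% lower beside 15% of all genes, at a median of -0.30. Of 66 in OE, 36 (54.5%) were lower and 18 higher, beside 17.8% and 26.6% of all genes, at a median of -0.24. In the broader class of over 100 kb, 229 of 1085 genes were lower and 206 higher in control, while in OE the balance was the other way, with 171 of 1118 lower and 471 higher. Of 64 genes over 500 kb tested in both genotypes, 32 were lower in both and 10 were higher in both. Of the 3836 genes of any length tested in both, 344 were lower in both and 416 higher in both.

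*Fhit*, a tumour suppressor gene at a fragile site that spans 1612 kb (chr14:9550092-11162035, GRCm38), was 15.7, 3.04, 13.8 and 3.86. *Wwox*, likewise a fragile site gene of 913.1 kb (chr8:114439655-115352708), was 6.61, 0.936, 5.44 and 1.10. *Cntnap5a*, the marker of the cluster, spans 902.6 kb (chr1:115684756-116587323). *Naaladl2* (1346 kb) was 2.60, 0.417, 2.2 and 0.214, and *Immp2l* (931.5 kb), a mitochondrial peptidase subunit gene, was 3.59, 0.949, 3.44 and 0.929. *Dpyd*, the pyrimidine-degrading dehydrogenase (870.8 kb), was 5.74, 1.97, 5.32 and 2.27. In each of these the AAI mice lay below the mice without AAI.

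Length did not fix the direction. *Exoc4* (724.9 kb, chr6:33249085-33973979) was 4.99, 16.1, 5.35 and 20.2. *Nrg1*, the ErbB ligand neuregulin 1 (1069 kb, chr8:31814551-32884029), was 5.13, 18.4, 5.21 and 12.9. *Esrrg*, an orphan nuclear receptor of mitochondrial metabolism (606.1 kb), was 35.5, 55.5, 29.1 and 54.4, and *Arhgap15* (647.1 kb) was 0.654, 2.70, 0.682 and 3.55. All 4 rose in both genotypes.

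**Figure D3:**
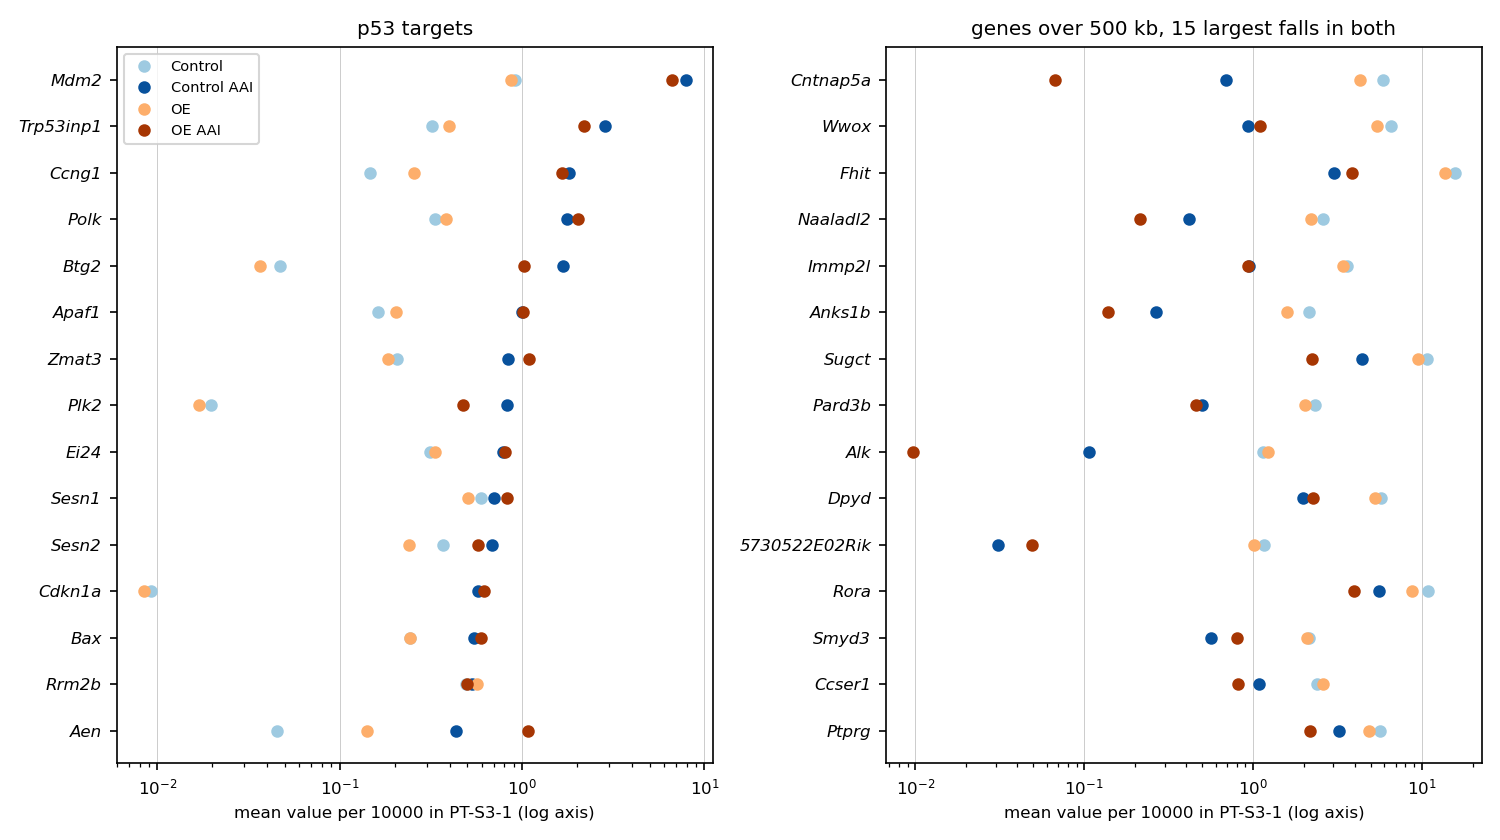
Mean value per 10000 in PT-S3-1 (log axes) of p53 targets that reached 0.5 in any mouse (left) and of the 15 genes over 500 kb with the largest falls in both genotypes (right), 1 point per mouse. The points with AAI lie right of those without for *Mdm2* and left of them for *Cntnap5a* and *Fhit*.

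The fall of the longest genes varied between clusters. In control it was 46 of 65 genes lower in PT-S3-3 (median -0.42), 27 of 65 in PT-S3-2 (-0.09), 23 of 66 in PT-S1-S2-2 (-0.05) and 15 of 66 in PT-S1-S2-1 (0.04). Of all genes that passed in these clusters, in the same order, 18.6%, 15.7%, 13.6% and 12.5% were lower. In OE the medians were -0.18 in PT-S3-3, and 0.06, 0.06 and 0.08 in PT-S3-2, PT-S1-S2-2 and PT-S1-S2-1, against -0.24 in PT-S3-1. The distal convoluted tubule cluster had medians of 0.13 and 0.18. Other clusters fell as well, with medians in control and OE of -0.55 and -0.48 in InjuredPT-B and -0.68 and -0.34 in InjuredPT-A. The paper found these injured clusters almost only in AAI mice, which limits their AAI differences. The mesangial cluster had -0.31 and -0.03, and the endothelial cluster EC-2 had -0.16 and 0.01. Among clusters not named here, the control medians were of either sign. The genes that passed were not the same in every cluster, and the share of genes at 0 rose with AAI in PT-S3-1 and PT-S3-3 more than in PT-S3-2, so the part of depth was not tested.

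**Figure D4:**
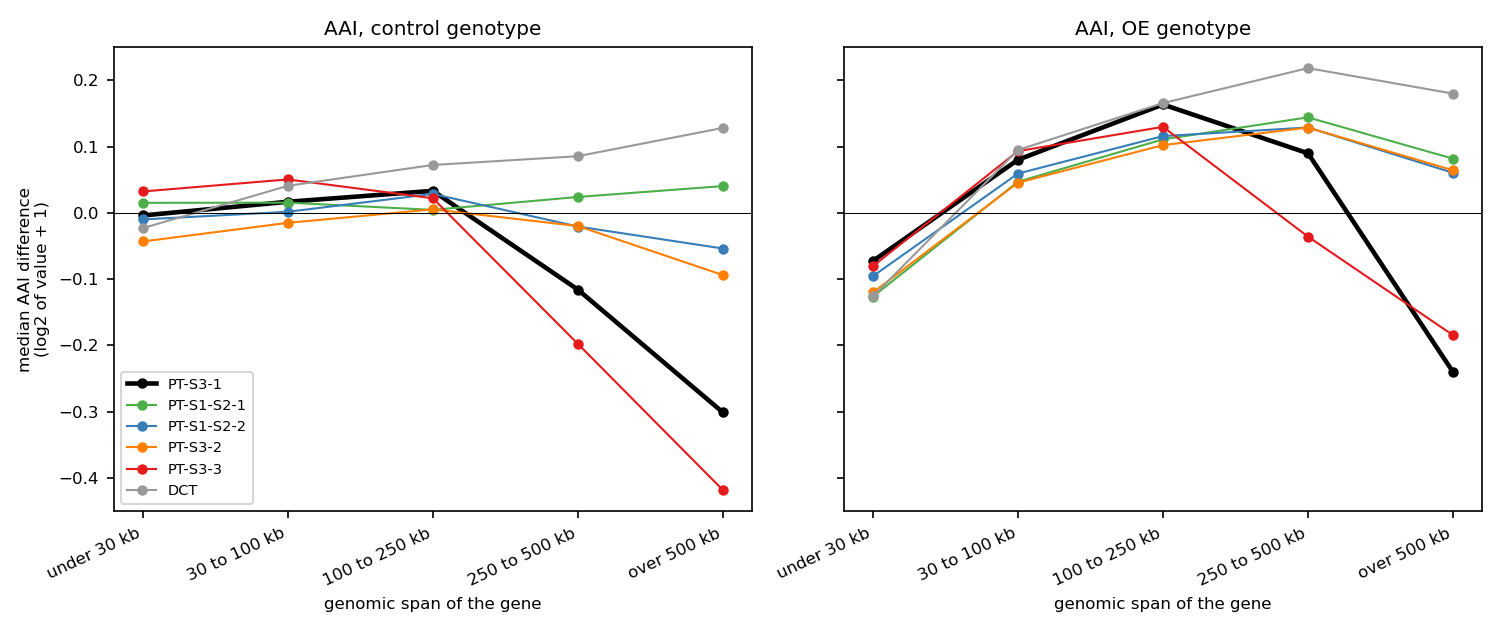
Median AAI difference in log2(value + 1) of the genes that passed, by genomic span (horizontal), in the 5 proximal tubule clusters and the distal convoluted tubule cluster (DCT), for each genotype. For genes over 500 kb the median of PT-S3-1 (black) was -0.30 in control and -0.24 in OE, and that of DCT was 0.13 and 0.18.

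Of 27 genes of fatty acid oxidation that passed in control, 8 were lower and 5 higher (median -0.03), and of 28 in OE, 12 were lower and 2 higher (median -0.13). Of all genes, 15% were lower in control and 17.8% in OE, and 16.6% and 26.6% higher. *Ehhadh*, the peroxisomal bifunctional enzyme, was 9.0, 4.56, 4.63 and 1.43. *Pecr*, a peroxisomal reductase, was 10.8, 4.76, 7.44 and 3.85. *Ppara*, the transcription factor gene of this pathway, moved the other way and was 4.35, 10.9, 5.13 and 7.81. Among transcription factors, *Hnf4a* was 2.95, 2.39, 2.94 and 2.76 and was called in control only, at -0.22.

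Among genes for transport and uptake, *Slc22a12*, the urate transporter URAT1, was 2.26, 0.597, 2.67 and 0.398. *Abcc2*, the apical efflux pump MRP2, was 10.1, 16.8, 6.73 and 12.3. *Slc13a1*, the sodium-sulfate cotransporter, was 15.4, 30.0, 8.87 and 35.1. *Cubn*, the vitamin and protein receptor cubilin, was 3.48, 11.5, 3.95 and 7.62, while its partner *Lrp2* (megalin) was 23.4, 22.1, 14.6 and 21.4. *Cyp24a1*, which inactivates vitamin D, was 0.343, 3.00, 0.0559 and 1.19. Of 25 sugar, amino acid, phosphate and dicarboxylate transporters that passed, 9 were higher and 6 lower in control, and 12 and 6 in OE. Of 18 organic anion and cation transporters in control, 6 were higher and 4 lower, and of 17 in OE, 3 and 6. Of 6 endocytic receptor genes, 2 were higher in control and 3 in OE, and 1 was lower in OE. These counts stand beside 16.6% of all genes higher and 15% lower in control, and 26.6% and 17.8% in OE, and several lie near those shares.

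The lists in this paragraph are small, and their counts stand beside 16.6% of all genes higher and 15% lower in control, and 26.6% and 17.8% in OE. Of the tubular injury and cytokine list, 5 of 21 genes passed in control and 4 in OE. *Cxcl1*, a neutrophil chemokine gene, was 0.0856, 1.23, 0.0764 and 2.60. *Spp1* (osteopontin) was 0.756, 1.57, 1.93 and 1.72 and was not raised with AAI in OE. Of 8 clock genes that passed, 5 were higher and 2 lower in each genotype, with *Nr1d2* at 1.04, 1.86, 0.828 and 1.81 and *Npas2* at 0.741, 0.165, 0.738 and 0.0634. The immediate early and Kruppel-like factor list had 4 of 7 higher and 2 lower in control, and 3 of 6 higher in OE. Branched-chain amino acid catabolism had 4 of 18 lower and 1 higher in control, and 9 of 19 lower in OE. The time of day of collection is not given in the sources used here. Among NRF2 targets, 1 of 9 was higher and 3 lower in each genotype, and the median was -0.06 in control and -0.08 in OE.

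Without AAI, the OE mouse differed from the control mouse in fewer genes. Of 3955 genes that passed, 326 (8.24%) were higher in OE and 414 (10.5%) lower, around a median of -0.03, and with centring 384 were higher and 334 lower. *Klf6* itself was 0.181, 0.340, 0.162 and 0.260, below the filter in every mouse. The transgene is human KLF6, and whether its reads count toward the mouse row is not given in the sources used here, so this row does not check the label. *Polr2a*, the catalytic subunit gene of RNA polymerase II, was 1.32, 1.71, 1.39 and 1.89. It was called higher with AAI, by 0.22 and 0.28, and differed between genotypes by 0.04 and 0.09. The genotype comparisons use the same 4 mice as the AAI comparisons, so their values are not independent of those above.

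The 8 largest rises in OE without AAI were *Fkbp5*, *Tnfrsf21*, *Ttr*, *Pck1*, *Plxna4*, *S100g*, *Chd9* and *Polr3e*. *Fkbp5*, a glucocorticoid-induced chaperone gene, was 2.17, 4.64, 7.0 and 4.54, highest in the OE mouse without AAI. *Pck1*, the rate-limiting enzyme of gluconeogenesis, was 5.01, 5.54, 10.4 and 12.2, and both OE mice lay above both control mice. *Tnfrsf21*, a death receptor gene, was 2.19, 7.91, 6.27 and 8.44. The 8 largest falls were *Clec2h*, *Itgb6*, *Gclc*, *G6pc*, *Trabd2b*, *Ehhadh*, *Gas2* and *Slc13a1*. *Gclc*, the catalytic subunit of glutathione synthesis, was 8.18, 5.21, 3.30 and 2.62, with both OE mice below both control mice. *G6pc*, the last enzyme of gluconeogenesis, was 9.85, 2.63, 4.21 and 2.66, so that *Pck1* and *G6pc* moved in opposite directions.

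Genes of the ribosome and of oxidative phosphorylation were higher in the OE mouse without AAI, beside 8.24% of all genes higher and 10.5% lower. Cytosolic ribosomal proteins had 27 of 29 passing genes higher and 0 lower, and nuclear oxidative phosphorylation had 34 of 50 higher and 0 lower, at medians of 0.27 and 0.24. Of 11 mitochondrially encoded genes, 10 were higher. Their summed share was 1.41%, 0.965%, 1.98% and 0.943% of the column, highest in the OE mouse without AAI. With AAI in OE all 11 were lower, as were 31 of 50 nuclear oxidative phosphorylation genes, beside 17.8% of all genes lower. With AAI in control 8 of 11 mitochondrially encoded genes were lower, beside 15% of all genes. Of 41 nuclear oxidative phosphorylation genes in control, 1 was lower and 2 were higher. The mitochondrially encoded share was also highest in the OE mouse without AAI in the other 4 proximal tubule clusters, where it was 1.86% to 3.16%. The part of this share in the other results was not tested. Of the 326 genes higher in OE, those under 30 kb made up 64.4%, against 29.7% of the genes tested, although of 1167 genes under 30 kb only 210 were higher and 120 were lower. That share was not particular to PT-S3-1, being 64% to 73% in the other 4 proximal tubule clusters and 74% in the distal convoluted tubule cluster.

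With AAI, 557 (14.1%) of 3949 genes were higher in OE than in control and 468 (11.9%) lower, around a median of 0.03, and with centring 434 were higher and 572 lower. The 8 largest rises were *Slc5a12*, *Col6a6*, *Eml4*, *Gm42418*, *Auts2*, *Pck1*, *Gm26917* and *Gli2*. *Col6a6*, a collagen VI chain gene, was 0.0252, 0.0478, 0.00895 and 1.61, and *Eml4*, a microtubule-binding gene, was 0.0917, 0.273, 0.129 and 2.17. *Gm42418* and *Gm26917* are neighbours on chromosome 17, known to gather ribosomal RNA reads, and were 4.26, 8.45, 4.41 and 20.9, and 1.46, 4.94, 1.35 and 9.98. *Gli2*, a Hedgehog transcription factor gene, was 0.0160, 0, 0.542 and 0.807, and both OE mice were above both control mice. Of the genes higher in OE with AAI, those over 100 kb made up 52.9%, against 27.5% of those tested, the opposite of the comparison without AAI. In the other 4 proximal tubule clusters they made up 45% to 54%.

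The 8 largest falls in OE with AAI were *Slc7a13*, *4930533I22Rik*, *Ehhadh*, *Slco1a1*, *Pank1*, *Aacs*, *Glt1d1* and *Alas1*. *Slc7a13* differed by -1.69 and *Slco1a1* by -1.11. *Pank1*, which makes coenzyme A, was 7.60, 5.67, 5.74 and 2.26, and *Alas1*, the first enzyme of haem synthesis, was 1.5, 3.69, 1.66 and 1.44. Of 28 fatty acid oxidation genes that passed, 14 were lower and 1 higher, at a median of -0.18. Of 18 organic anion and cation transporter genes, 11 were lower and 1 higher (median -0.28), and of 20 phase I and phase II enzymes, 11 were lower and 2 higher (median -0.23). These shares stand beside 11.9% of all genes. For p53 targets, 4 of 15 were lower and 1 higher, at a median of 0.01.

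**Figure D5:**
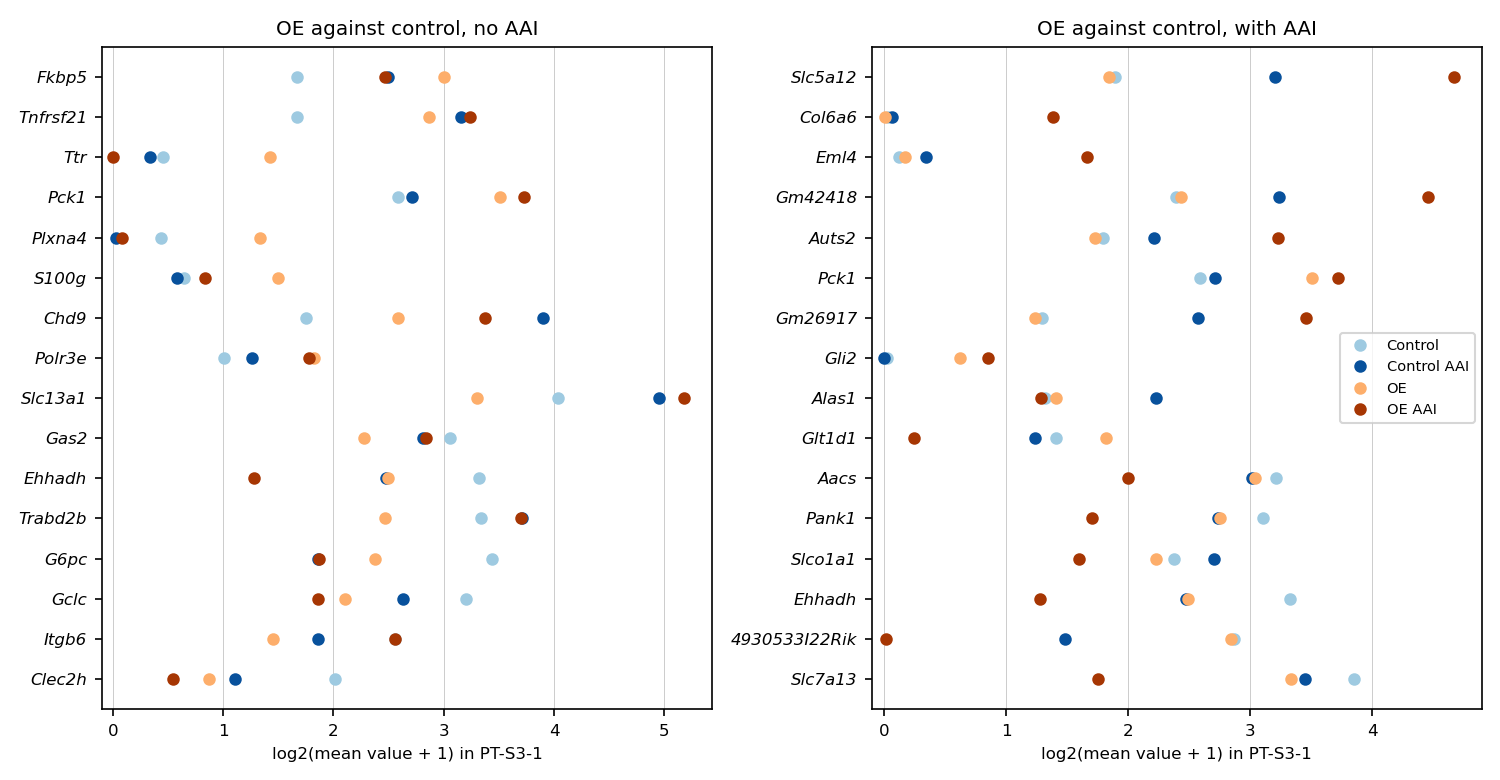
Values of the 8 largest rises and 8 largest falls in OE against control, on the log2(value + 1) scale, without AAI (left) and with AAI (right), with 1 point per mouse. *Pck1* is higher in both OE mice than in both control mice, and *Slc5a12* is highest in the OE mouse with AAI.

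Among genes that passed the filter in both genotypes, the AAI differences of the 2 genotypes were farthest apart, on the higher side in OE, for *Itgb6*, *Slc5a12*, *Col27a1*, *Gm42418* and *Gria3*, and on the lower side for *Csgalnact1*, *4930533I22Rik*, *Glt1d1*, *Fkbp5* and *Chd9*. *Itgb6*, the epithelial integrin subunit that activates TGF-β, was 4.89, 2.64, 1.74 and 4.88. *Chd9*, a chromatin remodeler gene, was 2.37, 13.9, 5.01 and 9.39, and its AAI difference was 2.15 in control and 0.79 in OE. *Csgalnact1*, a chondroitin sulfate synthesis gene, was 2.11, 1.65, 4.41 and 0.653. The mice without AAI already differed between genotypes for *Itgb6*, *Fkbp5*, *Csgalnact1* and *Chd9*, at -1.10, 1.33, 0.80 and 0.83, and with 1 mouse each these contrasts could not be tested.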

How the data were processed

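Single nucleus RNA sequencing of kidney cortex from 4 mice was used, 1 per condition, and replicates were not available. The signal values were deposited by the authors as the mean normalized expression per cluster and mouse, on a linear scale. Reads had been counted with Cell Ranger and clustered with Seurat on mm10, per the submitters' processing notes. The reference held pre-mRNA, so intronic reads counted. That the values are counts per 10000 was read from the column sums. Of 19632 gene rows, 23 with date-like names were left out. Genomic spans came from GENCODE M21 (GRCm38) and were held by 19315 rows. Per the methods, all libraries were prepared together as a technical batch.

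Members, gene lists (25) and the rule for named genes were chosen with earlier results of these data known. Named genes were the given markers, genes highest in the cluster, the largest and most stable differences of each comparison, the defining members of each list and those with its largest changes, *Klf6* and *Polr2a*. *Immp2l*, *Dpyd*, *Arhgap15*, *Pecr*, *Polk*, *Bax*, *Slc7a8*, *Slc2a2* and *Esrrg* were chosen after their values were seen. Some genes that the rule named are not reported here. No significance test was made. Counts were repeated with the pseudocount set to 0.1, the filter removed or raised to 2, the threshold raised to 1, differences centred, or the 13 mitochondrial transcripts removed, and genes highest in the cluster were also counted in each mouse alone. The script that makes the calls was tested on simulated data. Python 3.11.15, numpy 2.4.6, pandas 2.3.3 and matplotlib 3.10.9 were used. How doublets were treated in the RNA data is not given in the sources used here. Single nuclei and the chromatin data were not analysed here.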

Additional observations from a re-analysis of the deposited data

Results flagged for a closer look

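In 7 named genes the AAI difference had opposite signs in the 2 genotypes, past 0.2 each way, and the difference was not tested in any of them because each condition has 1 mouse. Of all 3836 genes tested in both genotypes, 28 were higher in control and lower in OE, and 33 the other way round. The naming rule took the 5 genes farthest apart each way between genotypes, *Itgb6*, *Col27a1* and *Fkbp5* among them, which favours such genes. The AAI difference in OE minus that in control was 1.79 for *Itgb6*, 1.25 for *Col27a1*, 1.06 for *Magi2* and 0.81 for *Gas2*, all higher with AAI in OE and lower in control. It was -1.36 for *Fkbp5*, -0.97 for *Slco1a1* and -0.63 for *Rdh16f2*, all lower with AAI in OE and higher in control. For *Itgb6* the AAI difference in the other 4 proximal tubule clusters was -0.94 to -0.14 in control and 0.72 to 1.60 in OE. For *Slco1a1* it was -0.44 to 0.01 in control and -0.37 to 0.22 in OE.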

How the results depend on the processing

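The counts depended on the scale and the cut, and no paired analysis was possible because each condition has 1 mouse. With a pseudocount of 0.1, the genes higher and lower in PT-S3-1 than the other 4 proximal tubule clusters were 123 and 153, those higher and lower with AAI were 1149 and 1070 in control and 1689 and 1114 in OE, and those higher and lower in OE were 671 and 928 without AAI and 1118 and 880 with AAI. With a minimum value of 2 the same counts were 43 and 44, 305 and 257, 511 and 234, 96 and 237, and 241 and 220. With a threshold of 1 they were 0 and 8, 38 and 29, 55 and 57, 2 and 4, and 6 and 6, and the genes over 500 kb lower with AAI were 11 in control and 10 in OE. With no filter, with centring on the median and without mitochondrially encoded genes all 10 counts stayed within 1.5 times, but centring turned the balance of higher and lower genes in all 4 comparisons between conditions, to 633 and 640, 814 and 970, 384 and 334, and 434 and 572. Genes highest in PT-S3-1 of the 23 clusters were 66 in the control mouse alone, 116 in the control mouse with AAI, 103 in the OE mouse and 110 in the OE mouse with AAI, and 3 at a minimum of 2.

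Of 102 list medians, 29 were past 0.2, against 47 with a pseudocount of 0.1 and 10 with no filter. The median of the injury and cytokine list in OE without AAI was 0.21 and became -0.15 at a minimum of 2. Of 527 repeats for named genes, 526 kept their call. The table gives neither the depth nor the number of nuclei behind a column, so the precision of low values could not be set.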
